A study of Mus musculus with 4 samples.

Results

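The genes described here mark B cells and the plasma cells that B cells become. They were the 8 genes Cd79a, Cd79b, Ms4a1, Cd22, Fcrla, Jchain, Mzb1 and Pou2af1, of 20659 genes that had a probe with a symbol on the array. Each was found through the RefSeq accession of its probe, and each had 1 probe. The samples were hearts of male mice in which the left anterior descending coronary artery had been tied off to give a myocardial infarction, collected 5 days later. The knock-out hearts (KO) came from VE-Cad-Cre-S1pr1 fl/fl mice, in which Cre recombinase under the VE-cadherin promoter is meant to delete S1pr1 from endothelial cells, and the other hearts came from WT mice. All animals had the infarction. Ages and strains are not given in the sources used here, nor is it stated whether the Cre is inducible or whether the WT mice carried the floxed allele. VE-cadherin is also made by the embryonic endothelium from which blood cells arise, and deletion of S1pr1 in B cells was not measured here.

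Cy3-labelled total RNA was read on Agilent arrays with 1 colour, 2 for KO (KO replicates 3 and 4) and 2 for WT (WT replicates 1 and 3), where the number is that in the sample title. Whether the arrays came from separate hearts is not stated, and the p-values therefore reflect the spread between arrays, which may be technical. A level here is the log2 signal of a probe minus the 75th percentile of its own array, and a difference is KO minus WT in these log2 units. A probe is called well above background where the scanner software flagged it so. This held for 73.4% and 71.5% of probes on the KO arrays and for 54.3% and 69.4% on the WT arrays, and the lowest level so flagged was -7.08 and -6.50 in KO against -4.39 and -6.50 in WT. WT replicate 1 was thus the least sensitive array for dim probes. The 4 arrays lay side by side on 1 slide, and position on it cannot be told apart from genotype. S1pr1, the targeted gene, was at -2.69 and -2.30 in KO against 0.43 and 0.95 in WT, with no overlap. The difference was -3.19 (SE 0.38, 95% interval -4.19 to -2.18), and its adjusted p of 0.740 in limma did not pass. As a check of the heart label, all 12 ventricular cardiomyocyte markers were well above background on the 4 arrays. Their mean level was 6.09 and 6.90 on the KO arrays against 2.08 and 6.30 on the WT arrays. For these markers WT replicate 1 stood apart from the other arrays. Precision is limited by having 4 arrays.

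A B cell recognises antigen through a membrane immunoglobulin that signals by way of the paired chains Cd79a and Cd79b. Signalling is restrained by Cd22, a sialic acid-binding inhibitory receptor. Once activated, B cells can become plasma cells, which secrete antibody and depend on factors such as Mzb1, a chaperone of the endoplasmic reticulum, and Jchain, which joins antibody units into polymers. After infarction in the mouse, B cells are known to enter the heart and to influence the recruitment of monocytes. S1pr1 on lymphocytes guides their exit from lymphoid organs into blood.

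Of the 8 genes, 5 had a promoter sequence in the RefSeq table of the GRCm38.p6 build, covering 250 bases before to 50 bases after the start of the gene. The promoters of Fcrla, Jchain and Pou2af1 are shown because these genes varied together across the arrays, and that of Cd22 because it did not vary with them. Both strands were searched for the octamer ATGCAAAT, which POU factors bind together with Pou2af1, and for the E-box CAGGTG, bound by the B cell factor Tcf3. Capitals mark the E-box, on either strand, and the Pou2af1 window holds neither motif. The E-box was added to the search after the sequences had been seen.
Fcrla (chr1:170927534-170927833, minus strand): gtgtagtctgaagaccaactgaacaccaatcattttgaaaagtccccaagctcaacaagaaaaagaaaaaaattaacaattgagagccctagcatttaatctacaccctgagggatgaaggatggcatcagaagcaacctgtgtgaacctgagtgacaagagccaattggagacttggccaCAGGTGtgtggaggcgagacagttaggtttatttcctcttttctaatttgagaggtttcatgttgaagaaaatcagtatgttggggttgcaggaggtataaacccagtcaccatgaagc
Jchain (chr5:88527848-88528147, minus strand): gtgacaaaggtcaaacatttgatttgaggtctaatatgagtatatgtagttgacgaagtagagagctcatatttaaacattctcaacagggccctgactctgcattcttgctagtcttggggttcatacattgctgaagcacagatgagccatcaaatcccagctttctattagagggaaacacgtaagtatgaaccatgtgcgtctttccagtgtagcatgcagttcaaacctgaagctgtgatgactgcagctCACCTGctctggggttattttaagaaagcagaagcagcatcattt
Pou2af1 (chr9:51213440-51213739, plus strand): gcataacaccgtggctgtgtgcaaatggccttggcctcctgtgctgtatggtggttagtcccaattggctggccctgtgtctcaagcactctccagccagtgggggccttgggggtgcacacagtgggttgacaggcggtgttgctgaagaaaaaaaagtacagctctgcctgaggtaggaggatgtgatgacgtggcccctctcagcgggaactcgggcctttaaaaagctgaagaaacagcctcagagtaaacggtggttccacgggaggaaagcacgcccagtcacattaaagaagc
Cd22 (chr7:30878979-30879278, minus strand): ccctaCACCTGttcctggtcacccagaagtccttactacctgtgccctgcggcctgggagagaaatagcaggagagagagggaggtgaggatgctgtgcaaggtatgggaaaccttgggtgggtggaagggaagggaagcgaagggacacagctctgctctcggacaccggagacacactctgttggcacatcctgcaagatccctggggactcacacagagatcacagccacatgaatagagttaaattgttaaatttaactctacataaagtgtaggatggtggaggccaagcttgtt
The octamer was in 0 of the 5 promoters and in 1.74% of the 32817 promoters of the table. The E-box was in 4 of 5, Cd22, Cd79a, Fcrla and Jchain, and in 20.2% of all promoters. As it was added with these sequences in view, its share among them cannot be read as an excess. In Fcrla its first base lay 69 bases before the start, at -69, and in Jchain 6 bases into the gene. No match overlapped another. A match describes letters in the window and is not a measured binding site.

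The design sets KO against WT hearts after infarction, and so asks whether B cell and plasma cell transcripts differ when S1pr1 is deleted from the endothelium. Most of these genes differed far more between the arrays of 1 genotype than between the genotypes. Jchain, Ms4a1, Cd79b, Fcrla, Pou2af1 and Mzb1 were high on KO replicate 3 and WT replicate 1 and low on KO replicate 4 and WT replicate 3. Within KO, the higher array was 2.33-fold (Mzb1) to 39.6-fold (Jchain) above the lower one for the 5 of these genes measured on both KO arrays. Within WT the range over the 6 genes was 4.74-fold (Cd79b) to 113-fold (Jchain). No gene of the set passed the test between KO and WT.

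**Figure D1:**
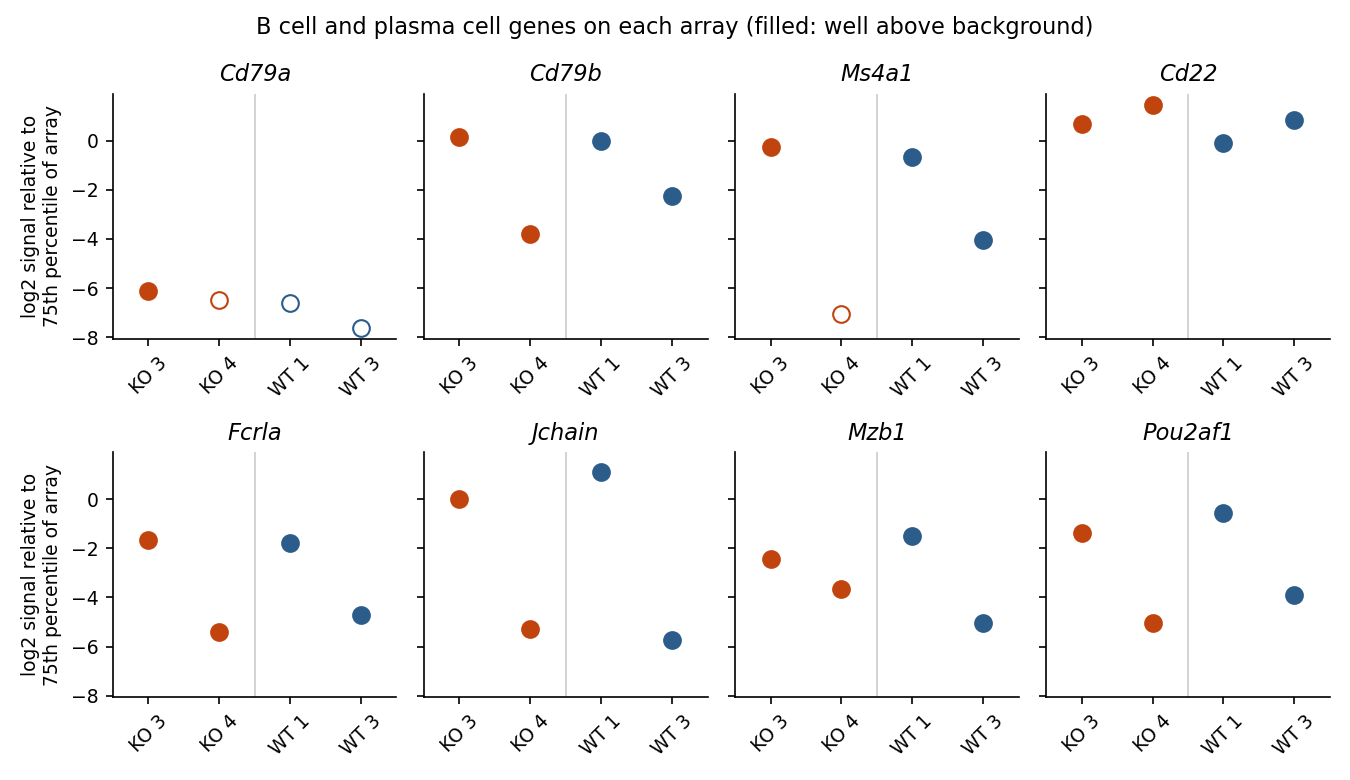
Log2 signal of each of the 8 genes relative to the 75th percentile of its array, with KO arrays in orange and WT arrays in blue and 1 point per array; open points were not well above background. In 6 panels KO 3 and WT 1 lie above KO 4 and WT 3, Cd22 runs between -0.10 and 1.46, and Cd79a is dim throughout.

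Among the chains of the B cell receptor, Cd79b was at 0.12 and -3.79 on KO replicates 3 and 4, against -0.03 and -2.27 on WT replicates 1 and 3. The highest and the lowest of these values both belonged to KO, and the WT arrays lay between them. Within KO the higher array was 15.1-fold above the lower, and within WT 4.74-fold. With normexp, a background correction that compresses dim signals, the log2 differences were 2.82 in place of 3.91 within KO and 1.94 in place of 2.25 within WT. Its mean was -1.83 ± 2.77 in KO and -1.15 ± 1.59 in WT (SD, n = 2 each). The difference was -0.68 with an SE of 1.56 (95% interval -4.86 to 3.50, adjusted p = 0.874 in limma). Its partner Cd79a had a dim probe, well above background on KO replicate 3 alone and on neither WT array. Its levels were -6.10 and -6.49 in KO against -6.61 and -7.61 in WT. With so little signal Cd79a was not tested and gives no fold, and although its KO values lay above its WT values, the level on WT replicate 1 was below what that array can measure.

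Ms4a1 encodes CD20, a membrane protein of B cells that plasma cells lack. It was at -0.28 and -7.06 on KO replicates 3 and 4, against -0.68 and -4.03 on WT replicates 1 and 3. The value on KO replicate 4 was not well above background. On this scale KO replicate 3 was 74.6-fold above the lowest level so flagged for any probe on KO replicate 4. That level is not a detection limit of the Ms4a1 probe, so the fold is no lower bound. WT replicate 1 was 10.2-fold above WT replicate 3. The size of the KO span depends on how dim signals are treated: the log2 difference was 6.79 as measured, 4.11 with a common floor and 3.06 with normexp. The floor and normexp values both lie under that fold. Within WT it was 3.35, and 2.39 with normexp. The genotypes overlapped, with means of -3.67 ± 4.80 in KO and -2.35 ± 2.37 in WT and a difference of -1.32 (SE 2.58, interval -8.25 to 5.61, adjusted p = 0.853 in limma).

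Fcrla, a protein related to Fc receptors that stays inside B cells, followed the same arrays. Its levels were -1.66 and -5.40 in KO against -1.80 and -4.72 in WT, a span of 13.3-fold within KO and of 7.57-fold within WT. Its low values were 1.102 (KO replicate 4) and 1.78 (WT replicate 3) log2 units above the lowest level flagged on their arrays. With normexp the log2 differences were 1.68 in place of 3.74 within KO and 1.75 in place of 2.92 within WT. The mean difference was -0.27 (SE 1.63, interval -4.66 to 4.12, adjusted p = 0.954 in limma).

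Pou2af1, the coactivator that works with POU factors in B cells and is needed for germinal centres in the mouse, was at -1.37 and -5.06 in KO against -0.57 and -3.92 in WT. WT replicate 1 was highest, followed by KO replicate 3, WT replicate 3 and KO replicate 4. The span was 12.9-fold within KO and 10.2-fold within WT. The value on KO replicate 4 was 1.44 log2 units above the lowest level flagged there, and with normexp the log2 differences were 1.94 in place of 3.69 within KO and 2.44 in place of 3.35 within WT. The difference of -0.98 (SE 1.71, interval -5.58 to 3.63) had an adjusted p = 0.836 in limma.

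Cd22 was the exception. Its levels were 0.67 and 1.46 on KO replicates 3 and 4, against -0.10 and 0.85 on WT replicates 1 and 3, well above background on each. It was lower on KO replicate 3 than on KO replicate 4 and lower on WT replicate 1 than on WT replicate 3, the opposite of the 6 genes named above. The means were 1.06 ± 0.56 in KO and 0.38 ± 0.68 in WT, a difference of 0.69 (SE 0.52, interval -0.70 to 2.08). The adjusted p was 0.740 in limma, the lowest of the 7 tested genes. Its SE was also the smallest of the set. From high to low, Cd22 ran KO replicate 4, WT replicate 3, KO replicate 3 and WT replicate 1. The mean of the ventricular cardiomyocyte markers had the same order, at 6.09 and 6.90 in KO against 2.08 and 6.30 in WT. Whether the Cd22 probe read B cells alone was not tested.

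The plasma cell genes had the widest spread in WT. Jchain was at 0.02 and -5.29 on KO replicates 3 and 4, against 1.096 and -5.73 on WT replicates 1 and 3, a span of 39.6-fold within KO and of 113-fold within WT. Its low values were only 1.21 log2 units (KO replicate 4) and 0.77 log2 units (WT replicate 3) above the lowest level flagged on their arrays, so the size of these folds rests on dim signals. With normexp background correction the log2 difference between the WT arrays was 4.68 in place of 6.83, and that between the KO arrays 3.28 in place of 5.31. The genotype means were close, -2.63 ± 3.75 in KO and -2.32 ± 4.83 in WT. The interval of their difference of -0.32 (SE 2.94) ran from -8.22 to 7.59, with an adjusted p = 0.971 in limma.

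Mzb1 was measured by 10 spots of 1 probe on each array, which were averaged. Its levels were -2.46 and -3.68 in KO against -1.51 and -5.06 in WT. It differed from Jchain in its narrower KO span of 2.33-fold, while WT replicate 1 was 11.7-fold above WT replicate 3. The value on WT replicate 3 was 1.44 log2 units above the lowest level flagged there, and with normexp the log2 differences were 0.55 in place of 1.22 within KO and 2.04 in place of 3.55 within WT. The difference between genotypes was 0.21 (SE 1.30, interval -3.29 to 3.72, adjusted p = 0.955 in limma).

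Of the 8 genes, 7 passed the filter of being well above background on at least 2 arrays, and 0 of these were called at an adjusted p under 0.05, against 0% of all 22931 features tested. Without adjustment 0 of the 7 had a p under 0.05, against 2.76% of features (633). The mean was lower in KO for 5 of 7, against 45.2% of features, and higher for 2 of 7, against 54.8%, and the median difference was -0.32 against 0.07 over all features. Levels of KO and WT overlapped for every one of the 7 tested genes: 0 of 7 were free of overlap, against 34.4% of features. With 2 arrays a side, the exact permutation test (two-sided) has a smallest possible p of 0.333. Each of the 7 intervals reaches at least 2.08 above and 0.70 below 0, so these arrays show neither a difference nor its absence.

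**Figure D2:**
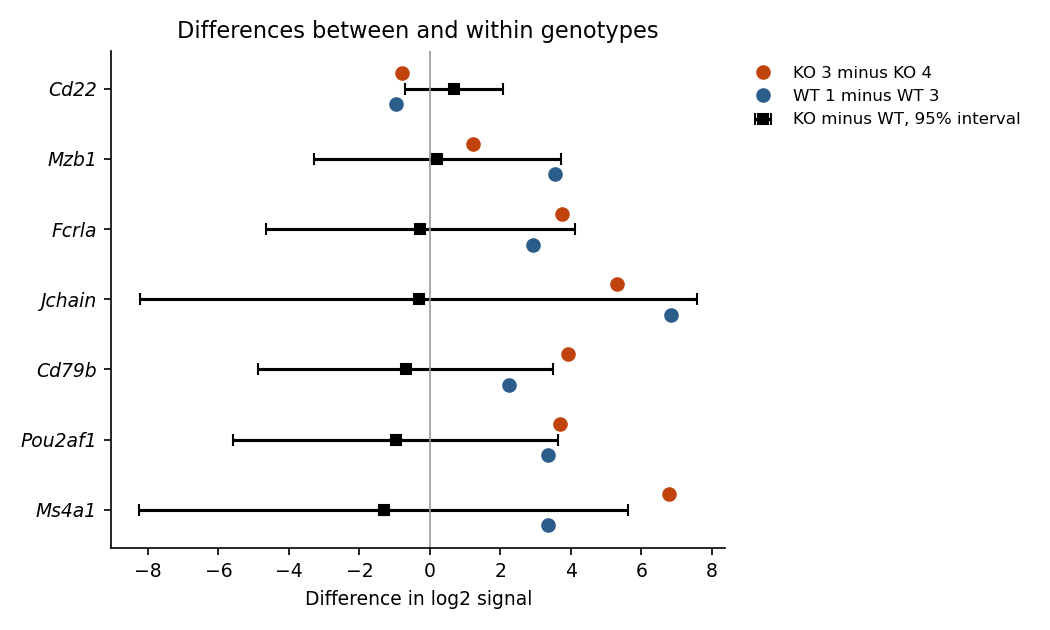
For each tested gene, the KO minus WT difference in log2 signal with its 95% interval from limma (black), the difference between the KO arrays (orange) and that between the WT arrays (blue). For all genes but Cd22 the within-genotype differences are positive, from 1.22 to 6.83, while the intervals of the KO minus WT difference all contain 0.

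The sign of these differences rested on single arrays. Without KO replicate 4, 0 of 7 genes had a lower mean in KO and the median difference was 1.27. Without WT replicate 1, 0 of 7 were lower and the median was 0.70. Without KO replicate 3 or without WT replicate 3, 6 of 7 were lower, with medians of -2.64 and -1.81. Cd22 kept a higher mean in KO in each of these cases, at 0.21 to 1.17.

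The within-genotype differences were also set beside those of all features. The median over the 7 genes was 3.74 for KO replicate 3 minus KO replicate 4 and 3.35 for WT replicate 1 minus WT replicate 3, against -0.17 and 0.00 over all features. KO replicate 3 was above KO replicate 4 for 6 of 7 genes, against 38.3% of features, and WT replicate 1 above WT replicate 3 for the same 6, against 50% of features. A difference of at least 4-fold in both of these directions was seen for 5 of 7 genes, Cd79b, Ms4a1, Fcrla, Jchain and Pou2af1, and for 180 of 22931 features (0.785%). With normexp it was 2 of 7, Jchain and Ms4a1, against 0.196% of features. The directions compared are those in which these genes were seen to vary. The genes were also chosen with earlier results of these data known, so their share is favoured in advance and is no test. This is a description of 4 arrays, since it has no replicate of its own. In RNA from heart tissue, fewer B cells and less RNA per B cell cannot be told apart.

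**Figure D3:**
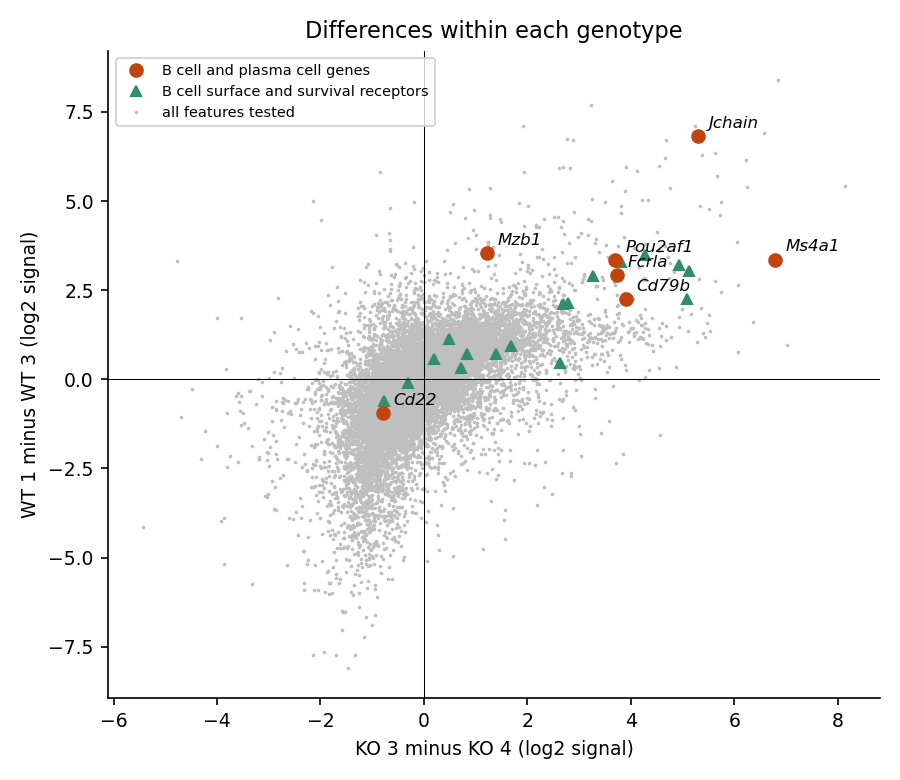
Difference in log2 signal between the KO arrays (horizontal) and between the WT arrays (vertical) for each of 22931 tested features (grey), 7 B cell and plasma cell genes (orange) and 17 B cell surface and survival receptor genes (green). Jchain and Ms4a1 lie far to the upper right, and Cd22 lies below and left of 0; the receptor genes are triangles.

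Other genes of B cells were read from lists of receptors, signalling proteins, transcription factors and plasma cell genes. Among 17 tested B cell surface and survival receptors, 0 were called, 1 had an unadjusted p under 0.05, and 13 were lower and 4 higher in KO, with a median difference of -0.54. With normexp background correction the split was 9 lower and 8 higher. In 15 of 17, KO replicate 3 was above KO replicate 4, and in 15 of 17 WT replicate 1 was above WT replicate 3. At least 4-fold in both was seen for 8 of 17, named here after their values were seen: Ccr6, Ccr7, Cxcr5, Fcmr, H2-Ob, Ltb, Ly6d and Tnfrsf13c. Tnfrsf13c, the receptor through which B cells receive the survival signal BAFF, was at -2.76 and -7.87 in KO against -2.70 and -5.74 in WT. Cxcr5, which draws B cells into follicles, was at -2.76 and -6.58 in KO against -2.78 and -6.08 in WT. On KO replicate 4 neither was well above background, nor were Fcmr, the Fc receptor for IgM, and Ccr6. As for Cd79b and Ms4a1, KO replicate 3 and WT replicate 1 were the high arrays for both Tnfrsf13c and Cxcr5.

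The 4 receptors of smallest p did not all share that order. Cd180, a Toll-like receptor relative that regulates B cell responses and is also made by macrophages, was at -5.50 and -8.13 in KO against -3.13 and -3.59 in WT (difference -3.46, SE 0.95, adjusted p = 0.740 in limma), and was not well above background on KO replicate 4. Its partner in innate sensing Ly86 differed by -1.30 (SE 0.61), the activation marker Cd83 by 0.96 (SE 0.51) and Tnfrsf13b, a BAFF and APRIL receptor, by 0.72 (SE 0.45), with a WT replicate 1 value not well above background. For these genes the difference between the WT arrays was smaller than for the receptors above, at 0.46 for Cd180 and -0.61 for Tnfrsf13b.

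Among 20 tested genes of B cell receptor signalling, 0 were called, 3 had an unadjusted p under 0.05, and 15 were lower and 5 higher in KO (median -0.90). The genotypes did not overlap for 10 of 20, against 34.4% of features. Among the genes of smallest p were the adaptor Pik3ap1 (-1.57, SE 0.38, adjusted p = 0.740 in limma), the exchange factor Vav1 (-1.89, SE 0.70) and the inhibitory co-receptor Cd72 (-1.88, SE 0.83). Pik3ap1 was not well above background on KO replicate 4 or WT replicate 1. Pan-macrophage markers had lower means in KO for 15 of 15 tested (14 with normexp), 0 of them called, with mean levels of 2.17 and 0.90 on the KO arrays against 3.27 and 2.25 on the WT arrays, and their part in these values was not tested.

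Of 13 tested B cell transcription factors, 7 were lower and 6 higher in KO, 0 were called and 0 had an unadjusted p under 0.05 (median -0.13). The genes of smallest p were Bcl11a (0.74, SE 0.31), the lymphoid factor Ikzf1 (-1.63, SE 0.84), the B lineage factor Pax5 (0.52, SE 0.30) and Irf8 (-0.74, SE 0.51), which macrophages also use. Pax5 was dim, at -5.84 and -5.81 in KO against -6.33 and -6.35 in WT, and was not well above background on WT replicate 1. Spib, named after its values were seen, was the 1 factor of the list with at least 4-fold in both genotypes, at -0.69 and -4.93 in KO against -0.32 and -3.12 in WT. Ebf1, which also works outside the B lineage and was likewise named after its values were seen, varied little, at 0.15 and 0.07 in KO against 0.07 and 0.09 in WT.

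Of 18 tested plasma cell genes, 13 were lower and 5 higher in KO, 0 were called and 2 had an unadjusted p under 0.05 (median -0.68). Tnfrsf17, the survival receptor BCMA, differed by 1.75 (SE 0.47, adjusted p = 0.740 in limma), at -4.75 and -3.80 in KO against -6.26 and -5.79 in WT. The value on WT replicate 1 was not well above background. Slamf7, on plasma cells and other leukocytes and not well above background on KO replicate 4, differed by -2.60 (SE 0.80), the surface proteoglycan Sdc1, also known as CD138, by -2.01 (SE 0.999) and the endoplasmic reticulum foldase Fkbp11 by -1.74 (SE 0.92). At least 4-fold in both genotypes was seen for 0 of the 18, so none had the array pattern of Jchain at that size. This rests on the cut, which Mzb1 also missed. Sdc1 came near it, with log2 differences of 2.11 within KO and 1.86 within WT. Derl3, named after its values were seen, had 1.85 and 3.50. It was at -4.29 and -6.14 in KO against -2.67 and -6.17 in WT, its low values being dim. In direction alone, KO replicate 3 was above KO replicate 4 for 14 of 18, and WT replicate 1 above WT replicate 3 for 13 of 18. Many of these genes serve the secretory pathway of other cells too.

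No probe was named as an immunoglobulin heavy or light chain segment through the table used here. Of 9 tested factors that attract or support B cells, 4 were lower and 5 higher in KO, 0 were called and 1 had an unadjusted p under 0.05. These were led by Il10 (-1.07, SE 0.35, adjusted p = 0.740 in limma), Cxcr4 (-1.11, SE 0.68), Ccl19 (0.71, SE 0.49) and Lta (0.46, SE 0.37), the last not well above background on WT replicate 1. Cxcl13, the chemokine that attracts B cells through Cxcr5, was named after its values were seen. It was at 0.05 and -2.47 in KO against -1.03 and -5.59 in WT, a difference of 2.10 (SE 1.79), and so was higher on KO replicate 3 and WT replicate 1 than on the other array of each genotype. Tnfsf13b, which encodes BAFF and was also named after its values were seen, differed by 0.36 (SE 0.36), and its highest and lowest levels were -2.36 and -3.11.

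Markers of other cells also differed between the arrays of 1 genotype. Pan-macrophage markers were higher on KO replicate 3 than on KO replicate 4 for 13 of 15 genes and on WT replicate 1 over WT replicate 3 for 15 of 15, with median differences of 1.20 and 0.97. Ventricular cardiomyocyte markers ran the other way, higher on KO replicate 3 and on WT replicate 1 for 0 of 12 genes in each pair, with medians of -0.71 and -4.29. For T cell markers the median differences were 1.14 and 1.35. Their mean over 12 genes was -2.84 and -3.83 on the KO arrays against -2.90 and -3.83 on the WT arrays, and 9 of 12 were higher on KO replicate 3 than on KO replicate 4, as were 9 of 12 on WT replicate 1 over WT replicate 3. Between genotypes 7 were lower and 5 higher in KO, but 1 lower and 11 higher with normexp. Cd8a was not well above background on WT replicate 1, and Cd2 was the 1 gene of the list with at least 4-fold in both genotypes, both named after their values were seen. Plasmacytoid dendritic cells also make Mzb1 and other genes of this set. Their 8 tested markers had means of 0.80 and 1.14 in KO against 0.31 and 0.79 in WT. Of these, 3 of 8 were higher on KO replicate 3 than on KO replicate 4, as were 3 of 8 on WT replicate 1 over WT replicate 3. Cox6a2, among the 8 and named after its values were seen, was at 6.56 and 7.54 in KO against 2.21 and 6.90 in WT. Its order across the arrays was that of the mean of the ventricular cardiomyocyte markers, and its part in the means of the 8 was not tested. Neutrophil markers (9 tested) were at -1.69 and -1.42 in KO against -0.68 and -2.61 in WT. Fibroblast markers (10 tested) were at 4.45 and 3.46 in KO against 4.03 and 4.12 in WT, lowest on KO replicate 4. The part of these cells in the values of the B cell genes was not tested.

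**Figure D4:**
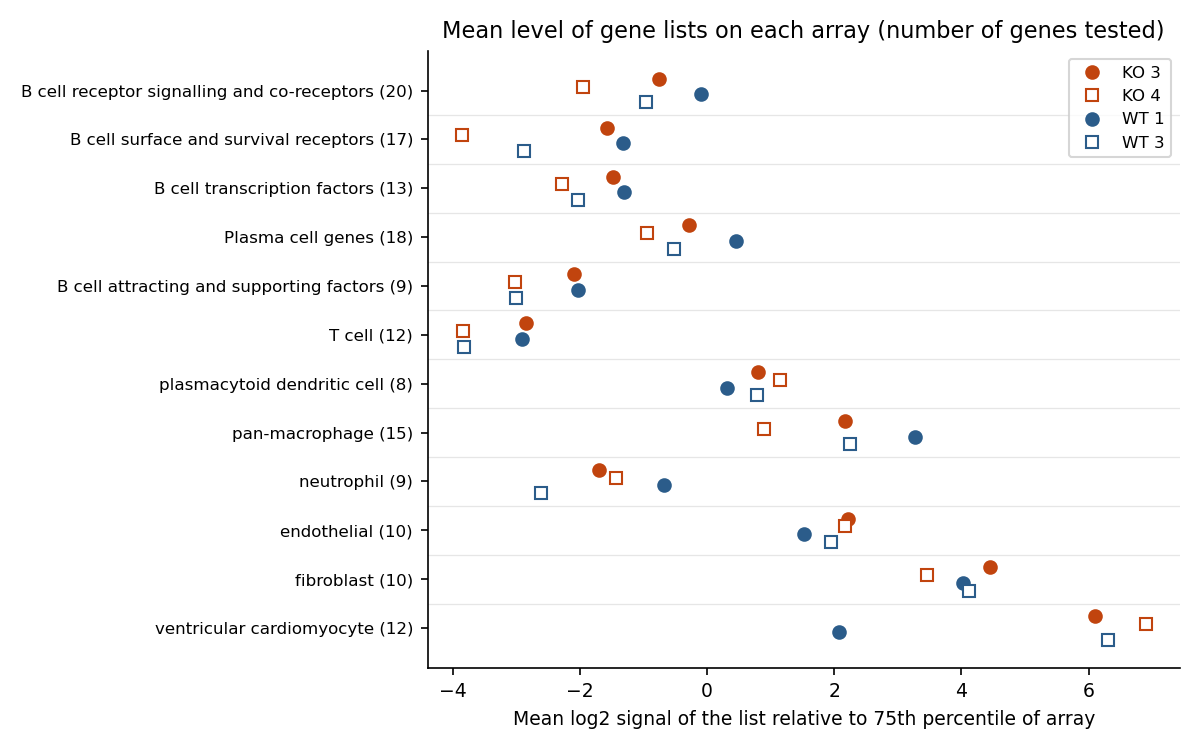
Mean log2 signal of each gene list, relative to the 75th percentile of the array, on KO 3 and KO 4 (orange, filled circle and open square) and WT 1 and WT 3 (blue, filled circle and open square), with the number of tested genes in brackets. The B cell, plasma cell, T cell and pan-macrophage lists have the filled circles right of the open squares in both genotypes. Cardiomyocyte markers are lowest on WT 1 at 2.08.

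The genes most like the set were sought among 12460 named genes well above background on the 4 arrays, excluding the set itself. Likeness was the root mean square distance over 4 arrays between centred levels of a gene and the mean centred levels of the 6 members measured on all arrays, which were 1.31 and -1.53 in KO against 1.61 and -1.38 in WT. The nearest were Mpo, the myeloperoxidase of neutrophil granules (distance 0.11), the neutrophil-attracting chemokine Cxcl5 (0.16), the water channel Aqp5 (0.16), Vat1l (0.18) and the retinoic acid-binding protein Crabp2 (0.23). Mpo was at -1.77 and -4.54 in KO against -1.43 and -4.68 in WT. Among the 6 members themselves the distance ran from 0.32 (Fcrla) to 1.95 (Cd22). The 5 genes were picked as the smallest distances among 12460, so their lying nearer than any member follows largely from that choice. The mean also includes Cd22, which ran opposite to the other members, and leaves out Ms4a1.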

How the data were processed

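Levels start from the scanner intensity after background subtraction and spatial detrending by Feature Extraction 11.0.1.1, per the file headers; version 9.1 is given per the submitters' processing notes. Other columns, the spot flags, are the scanner software's own, per the file headers. An alternative used the deposited log2 table, whose columns share a median of 6.106; how the authors normalized it is not given in the sources used here.

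Spots flagged as controls or outliers were left out, spots of 1 probe were averaged, and log2 signals were taken relative to an array's 75th percentile. Saturated spots numbered 0. Of 39429 probes, 27234 were named by accession through the GRCm38.p6 RefSeq table and 12195 had no symbol there. The array design names the mm9 build, so gene coordinates are not used; promoter coordinates are those of the table. Probes well above background on at least 2 arrays were kept, with the brightest probe per gene. The KO minus WT difference was fitted with limma 3.58.1 (lmFit, eBayes; R 4.3.3); p-values were adjusted by Benjamini-Hochberg across 22931 features and called under 0.05. The fit was tested on simulated data. Named genes were the 8 members, S1pr1, the 4 of smallest p in each list and the 5 nearest in pattern; others are said to be chosen after their values were seen. Some genes that the rule names are not reported here. The members and lists were chosen with earlier results of these data known. Lists are described by counts and medians, with no set test. Sequences are from RefSeq. Alternatives were other scalings, filters, the deposited table, averaged probes per gene, other variance options and each array left out. Normexp (offset 50) on median signals and a common floor under dim signals were chosen after seeing the data.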

Additional observations from a re-analysis of the deposited data

How the results depend on the processing

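In all 13 alternatives, 0 features and 0 of the B cell and plasma cell genes were called by limma, and S1pr1 kept its direction (-3.45 to -2.68). The number of features with an unadjusted p under 0.05 was 633, and 167 to 4251 with 1 array left out. Median scaling moved the median difference of all features from 0.07 to -0.04. The count of genes lower in KO was 5, ran from 0 to 6 with 1 array left out (0 when WT replicate 1 or KO replicate 4 was dropped), and was 4 to 5 otherwise. With 1 array left out, the lone array is assumed to vary like the others. Directions turned as follows, and the cause was not tested. Leaving out WT replicate 1 or KO replicate 4 gave, in that order, 0.44 and 1.27 for Cd79b, 0.36 and 2.08 for Ms4a1, 1.19 and 1.60 for Fcrla, 3.10 and 2.34 for Jchain, and 0.70 and 0.87 for Pou2af1. Mzb1 was -1.56 without WT replicate 3 and -0.40 without KO replicate 3. Over the 4 arrays left out in turn the ranges were -2.64 to 1.27 for Cd79b, -4.71 to 2.08 for Ms4a1, -2.14 to 1.60 for Fcrla, -3.73 to 3.10 for Jchain, -1.56 to 1.99 for Mzb1 and -2.82 to 0.87 for Pou2af1. With normexp Fcrla was 0.15. With the common floor Ms4a1 was 0.020, Fcrla 0.069 and Mzb1 -0.12, by construction since their low values lie under that floor. The within-genotype differences kept their sign for the 7 genes under quantile scaling, normexp, the common floor and the deposited values; that of Jchain within WT was 4.68 with normexp and 5.48 with the floor, against 6.83. Normexp on mean signals was not run, since the columns used here are median signals. No paired analysis was possible because the genotypes share 1 replicate number. Signal over background limits Cd79a, Pax5 and the low values of Jchain, Ms4a1, Fcrla, Pou2af1 and Mzb1, whose within-genotype folds are smaller with normexp.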
